A study of Mus musculus with 8 samples.

Results

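Interferon regulatory factors (IRFs) and STAT2 are the transcription factors that turn interferon and pathogen sensing into gene expression. The genes described here are Irf1, Irf2, Irf3, Irf5, Irf7, Irf8, Irf9 and Stat2, which were chosen by name because IRF proteins are known substrates of TRIM21, the ubiquitin ligase that was knocked out. Earlier results of these data were known when they were chosen. They are 8 of the 34745 genes in the deposited table of mouse hearts, and all 8 passed the filter on low values. The study compared hearts in experimental autoimmune myocarditis (EAM), a model in which mice are immunized against a peptide of their own cardiac myosin, with control hearts, by bulk RNA sequencing. The unit is FPKM, fragments per kilobase of transcript scaled to the sequenced total, so levels of different genes are compared per length.

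All mice were labelled Balb/c. The control group was wild type at day 0 (n = 2). The EAM wild-type group was wild type at day 21 (n = 3), and the EAM knockout group carried TRIM21KO at day 21 (n = 3). EAM mice received 100 µg of the MyHCα614-629 peptide under the skin at days 0 and 7, emulsified in complete Freund's adjuvant (CFA). The labels' treatment protocol gives CFA with buffer to control mice, while the samples themselves are labelled as controls of day 0, so immunization and day differ together and cannot be told apart. A second deposited sheet names the EAM libraries of both genotypes day 35 instead. There were no knockout hearts without EAM, so the response to EAM within the knockout could not be measured and no interaction was tested. No source used here gives how the knockout was made or the ages of the mice. The labels do not say that the libraries of a group came from separate animals. The second sheet gives the libraries numbers that differ within each group (control 1 and 2, wild type with EAM 1, 3 and 4, knockout with EAM 2, 5 and 6) and read as animal numbers. The p-values measure the spread between these libraries, which may be technical.

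In the cell, type I interferon receptors activate JAK kinases, which phosphorylate STAT2 and a partner STAT; these join IRF9 to form the complex ISGF3, which binds interferon-stimulated response elements (ISREs). Interferon-gamma acts through STAT dimers on gamma-activated sites (GAS) and induces IRF1, an activator of antigen presentation genes, while IRF2 competes with IRF1 for the same elements. IRF3, IRF5 and IRF7 wait in the cytoplasm for signals from pattern receptors, and IRF8 shapes monocytes, dendritic cells and B cells. TRIM21 acts on IRF proteins, and RNA levels do not measure protein amount or activity.

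Depth, inferred from the steps between low FPKM values, was 14420000 to 16860000 fragments per library, and 9201 to 9975 genes per library reached 1 FPKM. Summed cardiomyocyte markers stood at 9454 to 12490 FPKM, which fits the labelled tissue. Summed atrial markers were 4087 to 5454 FPKM in EAM wild type 2, EAM knockout 1 and EAM knockout 2, against 170.9 to 785.6 FPKM in the other 5 libraries. Trim21 was at 1.98 and 2.18 FPKM in control, at 2.98, 3.29 and 3.37 FPKM in EAM wild type and at 0.0481, 0 and 0.0220 FPKM in EAM knockout, so every library matched its genotype label.

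The promoters of 4 members that held a searched motif are shown, because these are the letters through which STAT and IRF proteins are known to bind DNA. Each is the 250 bases before a RefSeq gene start in GRCm38.p6, on the plus strand and written 5′ to 3′, with matches in capitals. The motifs were TTCNNNGAA for GAS, GAAA and GAAA with any 2 bases between them for the ISRE core, the same with any 3 bases between them for a wider ISRE core, and GGGA and TTCC with any 2 bases between them for a narrow NF-kB core, each searched on both strands. The intervals are chr11:53769764-53770013 for Irf1, chr8:46739495-46739744 for Irf2, chr8:120736108-120736357 for Irf8 and chr10:128270248-128270497 for Stat2.
Irf1: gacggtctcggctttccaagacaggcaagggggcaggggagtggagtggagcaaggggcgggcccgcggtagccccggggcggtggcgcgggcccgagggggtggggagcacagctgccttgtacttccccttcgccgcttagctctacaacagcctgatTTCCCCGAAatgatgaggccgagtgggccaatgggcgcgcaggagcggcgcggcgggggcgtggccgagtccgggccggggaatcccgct
Irf2: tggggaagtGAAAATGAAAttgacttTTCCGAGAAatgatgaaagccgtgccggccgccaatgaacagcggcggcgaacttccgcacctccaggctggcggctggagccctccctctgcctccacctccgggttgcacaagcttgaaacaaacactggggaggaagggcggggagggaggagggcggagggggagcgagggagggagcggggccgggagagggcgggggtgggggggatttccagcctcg
Irf8: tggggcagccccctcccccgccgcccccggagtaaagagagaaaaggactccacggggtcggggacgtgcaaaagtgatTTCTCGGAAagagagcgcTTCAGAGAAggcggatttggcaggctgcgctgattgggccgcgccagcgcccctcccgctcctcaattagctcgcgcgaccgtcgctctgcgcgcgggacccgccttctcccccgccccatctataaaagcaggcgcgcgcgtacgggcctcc
Stat2: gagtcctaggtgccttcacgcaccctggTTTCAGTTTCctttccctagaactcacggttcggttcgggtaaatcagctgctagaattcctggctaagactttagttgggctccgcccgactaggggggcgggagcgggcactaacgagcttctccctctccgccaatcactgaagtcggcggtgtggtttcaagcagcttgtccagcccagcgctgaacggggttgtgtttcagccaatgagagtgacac
The GAS letters began 90 bases before the start of Irf1, 224 before that of Irf2, and 171 and 153 before that of Irf8. They were present in 7.02% of the 32851 promoters of this length in the RefSeq table. The ISRE core began 241 bases before the start of Irf2, next to its GAS letters without overlapping them, and 222 bases before that of Stat2, where it lies on the reverse strand. That core was present in 2.98% of promoters. The wider ISRE core (2.38% of promoters) and the narrow NF-kB core (1.21%) were in no member's window among the 11 entries that matched all 8 members. The wider NF-kB consensus, searched after the data were seen and left in lower case, began 13 bases before the start of Irf1 and 17 before that of Irf2, and 7.25% of promoters held it. A match of letters is a description and not a measured binding site.

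Irf1 (ENSMUSG00000018899, chr11:53770014-53778374, plus strand, mm10), the interferon-gamma-induced activator, had the largest differences of the 8 genes on the log2(FPKM + 1) scale in both comparisons that involve EAM wild type. It was at 2.51 and 3.36 FPKM in control, at 7.47, 7.32 and 6.42 FPKM in EAM wild type and at 4.41, 4.0 and 4.34 FPKM in EAM knockout. The 3 groups did not overlap, with knockout hearts between control and EAM wild type. Irf1 rose from 2.93 ± 0.60 (SD, n = 2) to 7.07 ± 0.569 FPKM (SD, n = 3) in EAM wild type, a difference of 1.04 on the log2(FPKM + 1) scale (SE 0.126, limma adjusted p = 0.00569). It was lower in EAM knockout at 4.25 ± 0.220 FPKM (SD, n = 3), and against EAM wild type it fell by 0.62 (SE 0.113, 95% interval -0.873 to -0.363, limma adjusted p = 0.0249). The ratio of mean FPKM was 2.41 for the rise and 0.601 for the fall. Knockout hearts were 0.42 (SE 0.126) above control on the log2 scale, which did not pass the test (limma adjusted p = 0.168).

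The rise of Irf1 lost its call without control 1 (limma adjusted p = 0.0785) and kept it without each other library. The fall lost its call without EAM wild type 1 (limma adjusted p = 0.0798), EAM wild type 2 (0.0637), EAM knockout 1 (0.0513), EAM knockout 2 (0.0967) or EAM knockout 3 (0.071). With the 3 atrial-high libraries left out, the fall was 0.57 (SE 0.226, limma adjusted p = 0.367), while the rise was 1.02 and kept its call (limma adjusted p = 0.0307). Where such a fit leaves 1 library in a group, that library is assumed to vary like the other groups.

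Irf2 (ENSMUSG00000031627, chr8:46739745-46847458, plus strand), the competitor of IRF1, moved little. It was at 7.45 and 6.84 FPKM in control, at 9.15, 9.48 and 8.12 FPKM in EAM wild type and at 7.69, 8.70 and 7.92 FPKM in EAM knockout. Both EAM groups lay above both controls, and the knockout range overlapped that of EAM wild type. The log2 difference was 0.28 (SE 0.116, limma adjusted p = 0.304) for EAM wild type against control and -0.12 (SE 0.104, limma adjusted p = 0.543) for knockout against EAM wild type, so neither passed. The second of these is about the size of the difference of the median gene, -0.116, and was 0.0099 under median-ratio scaling, so Irf2 has no direction there that holds across scalings.

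**Figure D1:**
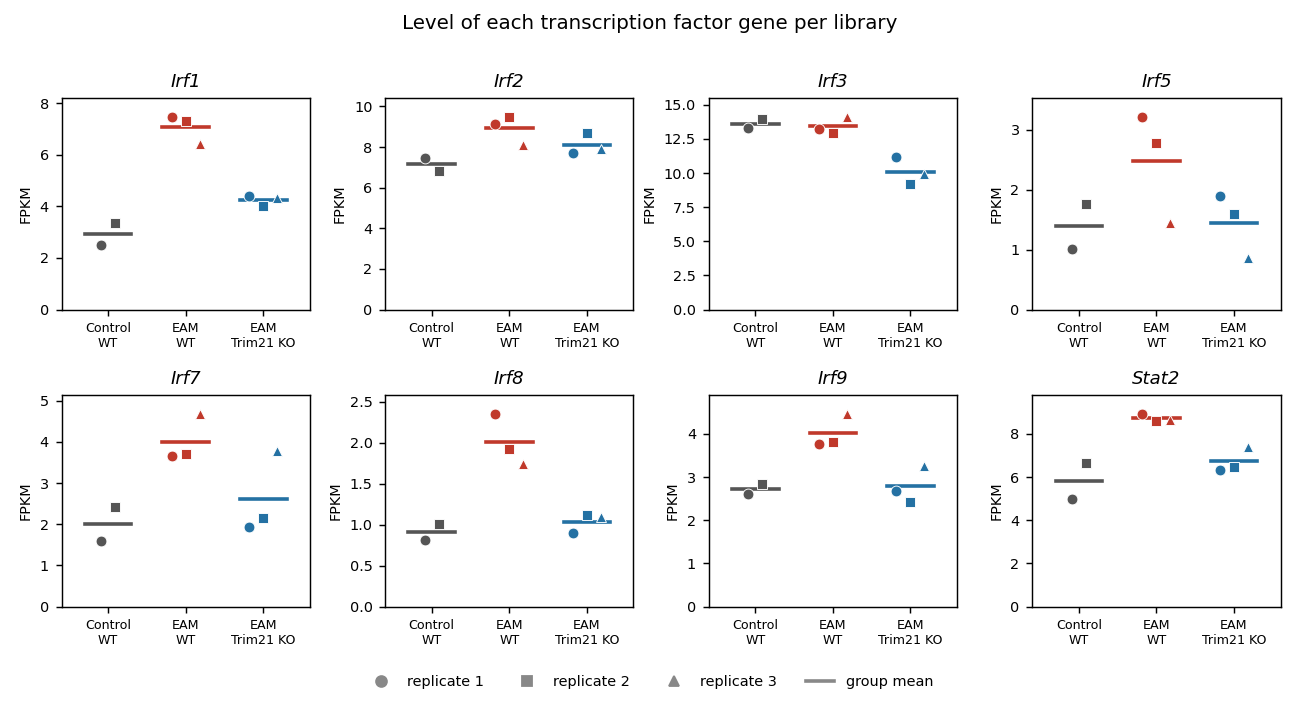
Each panel plots the FPKM of 1 gene in 8 libraries, grouped as control wild type, EAM wild type and EAM Trim21 knockout, with points for libraries and lines for group means. The EAM wild-type points of Irf1 (6.42 to 7.47 FPKM) lie above all other libraries, and the knockout points of Irf3 (9.21 to 11.2 FPKM) lie below all other libraries.

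Stat2 and Irf9, the partners within ISGF3, had similar patterns across the libraries. Stat2 (ENSMUSG00000040033, chr10:128270576-128292849, plus strand), the STAT that links the type I receptor to IRF9, was at 4.98 and 6.64 FPKM in control, at 8.92, 8.62 and 8.66 FPKM in EAM wild type and at 6.35, 6.45 and 7.39 FPKM in EAM knockout. Irf9 (ENSMUSG00000002325, chr14:55603571-55610030, plus strand), the DNA-binding subunit, was at 2.6 and 2.84 FPKM in control, at 3.77, 3.82 and 4.46 FPKM in EAM wild type and at 2.67, 2.42 and 3.26 FPKM in EAM knockout. For both genes every EAM wild-type library was above every other library, and the knockout libraries overlapped the controls. Neither gene passed the test. Against control, EAM wild type was higher by 0.52 (SE 0.132, limma adjusted p = 0.097) for Stat2 and by 0.43 (SE 0.126, limma adjusted p = 0.139) for Irf9. Against EAM wild type, the knockout difference was -0.34 (SE 0.118, limma adjusted p = 0.159) for Stat2 and -0.41 (SE 0.112, limma adjusted p = 0.0828) for Irf9. With the 3 atrial-high libraries left out these were -0.22 (limma adjusted p = 0.763) and -0.26 (limma adjusted p = 0.67).

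Irf3 (ENSMUSG00000003184, chr7:44997648-45002847, plus strand), the constitutive factor downstream of nucleic acid sensors, was the member with the highest level and had a pattern of its own. It was at 13.3 and 14.0 FPKM in control, at 13.2, 12.9 and 14.1 FPKM in EAM wild type and at 11.2, 9.21 and 9.93 FPKM in EAM knockout. Control and EAM wild type overlapped, and all 3 knockout libraries were below the other 5. The difference between EAM wild type and control was -0.02 (SE 0.12, 95% interval -0.289 to 0.251, limma adjusted p = 0.964). The knockout was at 10.1 ± 0.990 FPKM against 13.4 ± 0.609 in EAM wild type (SD, n = 3 each), a log2 difference of -0.38 (SE 0.107, 95% interval -0.623 to -0.14) that did not pass (limma adjusted p = 0.0889). Against control the knockout difference was -0.40 (SE 0.12, limma adjusted p = 0.169).

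Irf7 (ENSMUSG00000025498, chr7:141262706-141266481, minus strand), which amplifies type I interferon production, was at 1.59 and 2.42 FPKM in control, at 3.65, 3.70 and 4.67 FPKM in EAM wild type and at 1.94, 2.16 and 3.77 FPKM in EAM knockout. EAM wild type was above both controls, and EAM knockout 3 lay within the EAM wild-type range while the other 2 knockout libraries lay within that of control. The log2 difference was 0.74 (SE 0.215, limma adjusted p = 0.137) for EAM wild type against control and -0.49 (SE 0.193, limma adjusted p = 0.199) for knockout against EAM wild type. With the 3 atrial-high libraries left out, EAM knockout 3 stands alone for the knockout, and its difference was -0.11 (SE 0.238, limma adjusted p = 0.893) against EAM wild type. Against control the knockout difference of Irf7 was 0.25 with all libraries and 0.68 with those 3 left out, neither of which passed (limma adjusted p = 0.66 and 0.435).

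Irf5 (ENSMUSG00000029771, chr6:29526625-29541871, plus strand), a factor downstream of Toll-like receptors in myeloid cells, was at 1.02 and 1.76 FPKM in control, at 3.21, 2.78 and 1.43 FPKM in EAM wild type and at 1.90, 1.58 and 0.860 FPKM in EAM knockout. The 3 groups overlapped, and replicate 3 was the lowest of each EAM group. Its log2 difference was 0.52 (SE 0.266, limma adjusted p = 0.416) and -0.49 (SE 0.238, limma adjusted p = 0.288) in the same order, with the widest errors of the 8 genes. With the 3 atrial-high libraries left out, the knockout difference of Irf5 was -0.78 (SE 0.313, limma adjusted p = 0.368) against EAM wild type, and against control it went from 0.029 to -0.34 (limma adjusted p = 0.977 and 0.982). Irf5 also had the fewest fragments, 40.8 to 134.5 per library. Of its 2905 exon bases in GENCODE M21, 411 overlap Tnpo3 on the opposite strand, and no source used here says whether counting was by strand. Smaller overlaps touch Irf1 (135 bases), Irf3 (88), Irf7 (45) and Irf9 (123).

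Irf8 (ENSMUSG00000041515, chr8:120736358-120756694, plus strand), the factor of monocyte and dendritic cell lineages, had the lowest level in control and was the other member that passed the test. It was at 0.811 and 1.01 FPKM in control, at 2.35, 1.93 and 1.75 FPKM in EAM wild type and at 0.893, 1.12 and 1.09 FPKM in EAM knockout. Every EAM wild-type library was above every other library, and knockout overlapped control. Irf8 rose from 0.911 ± 0.142 (SD, n = 2) to 2.01 ± 0.309 FPKM (SD, n = 3), a log2 difference of 0.65 (SE 0.128, limma adjusted p = 0.0458). In EAM knockout it was at 1.04 ± 0.124 FPKM (SD, n = 3), and against EAM wild type it fell by 0.56 (SE 0.114, 95% interval -0.818 to -0.302, limma adjusted p = 0.035). At these levels the added 1 FPKM compresses the log2 difference, and the ratios of mean FPKM were 2.2 and 0.516.

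The calls of Irf8 were close to the threshold. The rise lost its call without any 1 of the 8 libraries, with limma adjusted p from 0.0545 without EAM wild type 3 to 0.283 without control 1. The fall kept its call without EAM wild type 3 (limma adjusted p = 0.048) and lost it without each of the other 7, from 0.0564 without control 2 to 0.0993 without EAM wild type 1. With the 3 atrial-high libraries left out, the rise was 0.67 (limma adjusted p = 0.111) and the fall was 0.54 (limma adjusted p = 0.341).

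Summed markers of monocytes and macrophages and of dendritic cells, which use IRF8, were also higher in EAM wild type than in the other groups. The 9 monocyte and macrophage markers summed to 183.3 to 211.1 FPKM in control, to 327.2 to 393.7 FPKM in EAM wild type and to 170.1 to 222.4 FPKM in EAM knockout, mostly through Lyz2. Of the 7 that were tested, 3 rose in EAM wild type (Adgre1, Lyz2 and Cx3cr1) and 4 fell in the knockout (Cd68, Adgre1, Lyz2 and C1qa). The 7 dendritic cell markers summed to 2.21 to 2.42, 4.99 to 5.68 and 2.67 to 2.80 FPKM in the same order, and 4 of them stayed under 1 FPKM in every library. Of the 3 that were tested, Cd209a rose in EAM wild type, and Itgax and Cd209a fell in the knockout. Both genes reached 1 FPKM only in EAM wild-type libraries. They thus passed the filter through the group where they were high, and their calls are a description. The third, Zbtb46, overlapped between all groups. Siglech, which was not tested, had a lower mean in EAM wild type (0.0395 FPKM) than in control (0.0551 FPKM). No marker on either list was at 0 in every library. In bulk tissue, fewer cells of a type and less RNA per cell cannot be told apart. Per 100 FPKM of summed macrophage markers, Irf8 was at 0.442 and 0.479 in control, at 0.622, 0.489 and 0.534 in EAM wild type and at 0.401, 0.540 and 0.642 in EAM knockout, so on this scale the knockout range held the whole EAM wild-type range. The EAM wild-type values of Irf8 still lay above those of control. Irf1 on the same scale was at 1.37 and 1.59, then 1.98, 1.86 and 1.96, then 1.98, 1.93 and 2.55, with EAM wild type above control and overlapping the knockout. Irf2, Irf3 and Stat2 were lower in EAM wild type than in both other groups without overlap. Stat2, for example, was at 2.72 and 3.15, then 2.36, 2.19 and 2.65, then 2.85, 3.11 and 4.34. For Irf5, Irf7 and Irf9, EAM wild type overlapped both other groups. The macrophage sum itself was highest in EAM wild type, so a gene that differs less than this sum comes out lower there. The share of all tested genes above or below on this scale was not computed, so these orders are not particular to the named genes. Irf5 did not follow the macrophage sum in every library, since in EAM wild type 3 it lay within the control range at 1.43 FPKM while that sum was 327.2 FPKM. The part of cell numbers in the changes of the 8 genes was not tested.

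B cell markers, whose cells also use IRF8, summed to 0.878 to 1.62 FPKM in control, 1.32 to 1.80 FPKM in EAM wild type and 1.92 to 2.53 FPKM in EAM knockout. T and NK cell markers, the cells that make interferon-gamma, summed to 0.559 to 1.21, 4.38 to 6.05 and 1.35 to 3.97 FPKM, and neutrophil markers to 0.733 to 1.33, 3.71 to 8.68 and 3.04 to 5.76 FPKM, in the same order. Of these lists, 3 of 5 B cell, 4 of 7 T and NK cell and 2 of 5 neutrophil markers stayed under 1 FPKM in every library, and no marker was at 0 in every library. The T and NK cell sums of the EAM groups did not overlap, while the neutrophil sums did. Of the 2 tested T and NK cell markers, Cd3g rose in EAM wild type and fell in the knockout against it. Cd3g reached 1 FPKM only in EAM wild-type libraries, so it passed the filter through the group where it was high. The other tested marker, Trac, overlapped between the EAM groups, at 1.47, 1.38 and 0.924 FPKM in wild type and 2.69, 1.84 and 0.645 FPKM in knockout. Fibroblast markers summed to 391.2 to 402.1, 493.0 to 574.9 and 270.2 to 372.5 FPKM, and endothelial markers to 144.0 to 164.7, 203.8 to 215.6 and 204.2 to 207.9 FPKM. Of the fibroblast markers, Col3a1 rose in EAM wild type, and Col3a1 and Dcn fell in knockout against EAM wild type. Of the endothelial markers, Kdr rose in knockout against control. The part of these cell types in the results for the 8 genes was not tested.

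**Figure D2:**
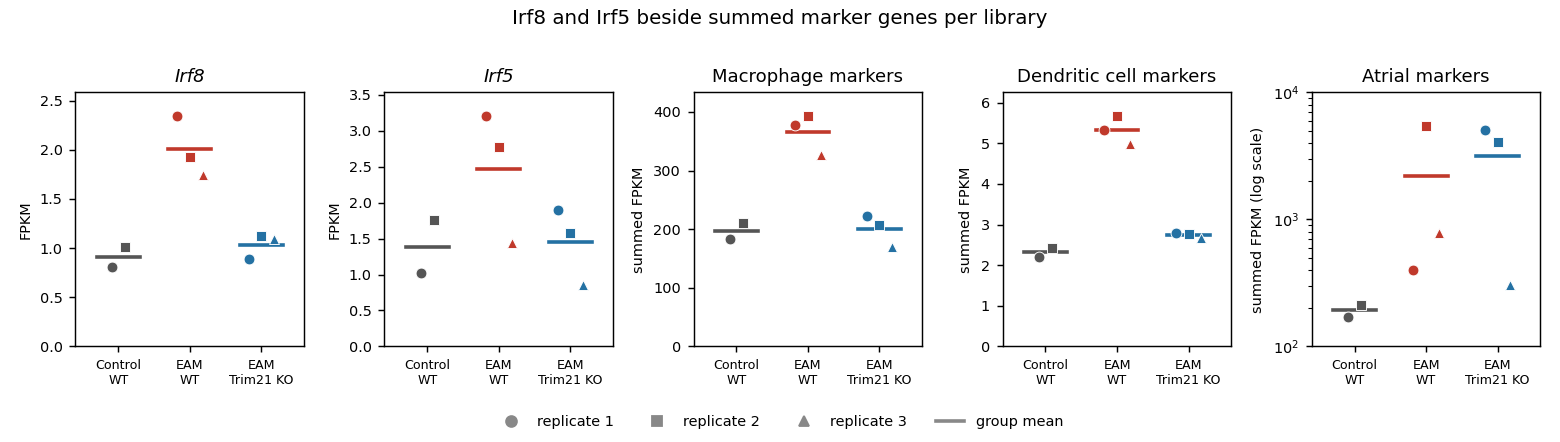
The panels plot FPKM of Irf8 and Irf5 and the summed FPKM of macrophage, dendritic cell and atrial markers in each library, with points for libraries and lines for group means; the atrial axis is logarithmic. Macrophage and dendritic cell sums are higher in every EAM wild-type library (327.2 to 393.7 and 4.99 to 5.68 FPKM) than in any other, and the atrial sums of 3 libraries stand apart.

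Counted together, 2 of the 8 genes rose in EAM wild type against control, Irf1 and Irf8, and none fell, where 1.36% of all 10393 tested genes rose and 0.135% fell. EAM wild type was above control without overlap for 6 of the 8, against 24.6% of tested genes, and 7 of the 8 differences were above 0, as were 66.7% of those of tested genes. The median log2 difference was 0.52 over the 8 genes and 0.084 over all tested genes. In knockout against EAM wild type, Irf1 and Irf8 fell and no member rose, where 2.8% of tested genes fell and 0.289% rose. Knockout was below EAM wild type without overlap for 5 of the 8 (Irf1, Irf3, Irf8, Irf9 and Stat2), against 22.6% of tested genes, and all 8 differences were negative, as were 72.8% of those of tested genes. The median difference was -0.45 over the 8 genes and -0.116 over all tested genes, and relative to that median Irf1 stood at -0.50, Irf8 at -0.44, Irf3 at -0.27 and Irf2 at -0.0074. The comparisons share the EAM wild-type libraries, so their directions are not independent. Since the 8 genes were chosen with earlier results of these data known, their counts beside all tested genes are a description and not a test. In knockout against control limma passed 0 of the 8 genes, where 1.37% of tested genes passed in either direction. There, 2 of the 8 had an unadjusted limma p under 0.05, as had 1422 of the 10393 tested genes. There, Irf1 and Irf2 were above control without overlap, as were 14.1% of tested genes, and Irf3 was below, as were 22.4%.

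The split of all calls into higher and lower depended on scaling. Over all tested genes 141 rose and 14 fell in EAM wild type against control, which became 75 and 18 with median-ratio and 63 and 19 with quantile scaling. In knockout against EAM wild type 30 rose and 291 fell, which became 43 and 88 with median-ratio and 50 and 90 with quantile scaling. In knockout against control 59 rose and 83 fell, which became 78 and 72 with median-ratio scaling. Irf1 and Irf8 stayed below EAM wild type in the knockout under each scaling, and Irf2 did not.

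**Figure D3:**
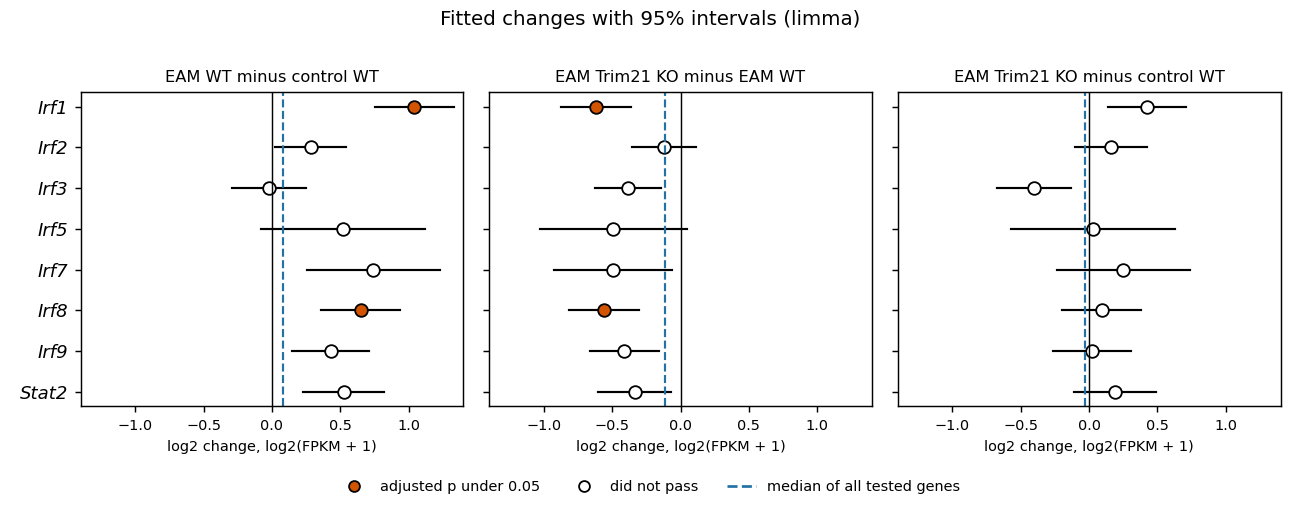
Log2 differences of the 8 genes on the log2(FPKM + 1) scale in the 3 comparisons, with bars for the 95% interval, filled points for an adjusted p under 0.05 and a dashed line at the median of all tested genes. Irf1 has the largest difference in the first 2 comparisons (1.04 and -0.62), and Irf3 is near 0 in the first and at -0.38 in the second.

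By mean FPKM, the levels ran from Irf3 over Irf2, Stat2, Irf1, Irf9, Irf7 and Irf5 to Irf8 in each of the 3 groups, which differed in the neighbours whose ranges overlapped. In control the neighbours Irf1 and Irf9, and Irf7 and Irf5, overlapped. In both EAM groups Irf9 and Irf7 overlapped, as did Irf5 and Irf8, and in EAM wild type Irf2 and Stat2 overlapped as well. The 8 genes summed to 34.2 and 38.9 FPKM in control hearts, to 51.8, 50.6 and 49.6 FPKM with EAM in wild type and to 37.0, 35.6 and 38.6 FPKM with EAM in the knockout, which put EAM wild type above all other libraries. Shares of that sum do not depend on a scaling that multiplies all genes of a library by 1 factor. Irf3 made up 38.8% and 36.0% in control hearts, 25.6%, 25.6% and 28.4% in EAM wild-type hearts and 30.2%, 25.8% and 25.8% in knockout hearts, so both EAM groups were below control. Irf1 made up 7.33% and 8.65% in control hearts, 14.4%, 14.5% and 12.9% in EAM wild-type hearts and 11.9%, 11.2% and 11.3% in knockout hearts, and the 3 groups did not overlap.

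The genes most like each member were found by the root mean square difference between centred log2 values over the 8 libraries, among 9183 candidate genes. Irf1 was closest to Tap1 (0.0718) and H2-T23 (0.0882), where the spread of Irf1 itself was 0.427 (SD). Tap1 encodes a subunit of the peptide transporter of class I presentation. Irf8 was closest to Rasa4 (0.0761) and Il10ra (0.0805), the latter the interleukin-10 receptor of leukocytes, with a spread of 0.306. Irf5 was closest to Tlr2 (0.141), a receptor of bacterial lipoproteins, and Anpep (0.155), with a spread of 0.379. Irf7 was closest to Ttll1 (0.128) and to Ifi47 (0.143), an interferon-inducible GTPase, with a spread of 0.379. Irf9 was closest to Evl (0.0663) and Psme2b (0.0685), Stat2 to Cstb (0.0772) and Plk3 (0.0825), Irf3 to Tmem57 (0.0527) and Snapc5 (0.0534), and Irf2 to Spred2 (0.0362) and Wdr81 (0.0364). Among the 28 pairs of members, Irf9 and Stat2 were closest (0.118), and Irf5 and Irf7 farthest apart (0.467). These measures rest on 8 libraries in 3 groups and describe likeness across them.

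The rest of the pathway was followed from ligand to target. None of the 9 interferon ligand genes reached 1 FPKM. Ifng, the interferon-gamma gene, was above 0 in 3 libraries, at 0.173 and 0.054 FPKM in EAM wild type 1 and 2 and at 0.152 FPKM in EAM knockout 3, where 3 fragments correspond to 0.137 to 0.161 FPKM. Ifnb1, the interferon-beta gene, was at 0 in every library, which allows up to 0.237 to 0.277 FPKM, a limit that covers counting error only. The other 7 ligands were also at 0. Transcripts of these 9 ligand genes were therefore at or near the detection limit in all groups at this depth. Of the interferon-alpha genes the list held only Ifna1, Ifna2 and Ifna4, and others were not looked at.

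Among 5 tested interferon receptor genes, 4 JAK kinases, 4 other STAT genes and 7 genes of ubiquitin pathways known to act on IRFs, limma passed 0 in each of the 3 comparisons. Of all tested genes, 1.36% rose and 0.135% fell in EAM wild type against control. In knockout against EAM wild type 0.289% rose and 2.8% fell, and 1.37% passed in knockout against control. With such shares, 0 calls in short lists say little, and the lists below stand beside the same shares. Ifngr1 came closest, lower by 0.49 in knockout against EAM wild type without overlap (limma adjusted p = 0.0524). The median log2 differences of the receptors were 0.23 and -0.21, and those of the kinases 0.29 and -0.27, for EAM wild type against control and knockout against EAM wild type. Of 7 tested partners of IRFs, Spi1, which encodes the IRF8 partner PU.1, rose in EAM wild type by 0.82 (limma adjusted p = 0.0468). Spi1 was at 1.41 and 1.58 FPKM in control, at 3.70, 3.97 and 2.66 FPKM in EAM wild type and at 1.66, 2.49 and 1.90 FPKM in EAM knockout, so EAM wild type lay above all other libraries. Of 14 tested sensing genes upstream of IRF3, IRF5 and IRF7, Tmem173, which encodes STING, rose by 0.97 (limma adjusted p = 0.00479) in EAM wild type and fell by 0.47 (limma adjusted p = 0.0365) in the knockout. Tmem173 was at 3.65 and 4.19, then 8.69, 8.05 and 9.12, then 6.09, 5.91 and 5.81 FPKM, with no overlap between the 3 groups.

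Of 12 tested inhibitors of interferon signalling, Socs1, the JAK inhibitor, rose in EAM wild type by 0.87 (limma adjusted p = 0.0142) and in EAM knockout against control by 0.79 (limma adjusted p = 0.0211). Socs1 was at 0.533 and 0.334 FPKM in control, at 1.60, 1.44 and 1.80 FPKM in EAM wild type and at 1.26, 1.68 and 1.5 FPKM in EAM knockout, and the EAM groups overlapped. Ptpn6, which encodes the phosphatase SHP-1 of blood cells, fell in knockout against EAM wild type by 0.60 (limma adjusted p = 0.0358), from 3.08, 3.35 and 3.12 FPKM to 1.93, 1.79 and 1.59 FPKM.

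Of 28 tested type I interferon targets, 3 rose in EAM wild type and none fell. These were Zbp1 (0.89, limma adjusted p = 0.0235), a sensor of Z-form nucleic acid, Trim30a (0.67, limma adjusted p = 0.0479) and Dtx3l (0.51, limma adjusted p = 0.0466). Zbp1 and Ifi44, also on this list, reached 1 FPKM only in EAM wild-type libraries. Both thus passed the filter through the group where they were high. The median over the 28 was 0.50, and 20 were higher without overlap, where 1.36% of all tested genes rose and 24.6% were higher without overlap. In knockout against EAM wild type limma passed 0 of the 28, where 2.8% of all tested genes fell. The median over the 28 was -0.29 there, and 10 were lower without overlap, as were 22.6% of all tested genes. Of 24 tested interferon-gamma targets, 13 rose in EAM wild type and none fell, with a median of 0.97 and 23 higher without overlap, beside the same shares of all tested genes. The largest differences were those of Igtp (2.15, limma adjusted p = 0.00479), Iigp1 (1.81, 0.0336) and Tgtp2 (1.48, 0.0267), immunity-related GTPases, and of B2m (1.55, 0.00561), the light chain of class I molecules. Ciita, on the interferon-gamma list, reached 1 FPKM only in EAM wild-type libraries. Outside EAM wild type, Cxcl9, Gbp5 and Nlrc5 of that list reached it only in EAM knockout 3. These genes thus passed the filter through the group where they were high.

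In knockout against EAM wild type, 6 of the 24 interferon-gamma targets fell and none rose, with a median of -0.52 and 13 lower without overlap, where 2.8% of all tested genes fell and 22.6% were lower without overlap. Igtp fell by 1.32 (limma adjusted p = 0.0173), Cxcl9, a T cell chemokine, by 1.04 (0.0152), B2m by 0.86 (0.0294) and Psmb8, an immunoproteasome subunit, by 0.84 (0.00513). Igtp was at 1.73 and 1.84 FPKM in control, at 8.88, 14.0 and 11.8 FPKM in EAM wild type and at 3.23, 3.13 and 5.95 FPKM in EAM knockout, so the knockout lay between the other groups. Against control, Cd274, which encodes PD-L1, rose in the knockout by 1.09 (limma adjusted p = 0.0211) and Nos2, the inducible nitric oxide synthase, by 0.90 (limma adjusted p = 0.0161). Nos2 was at 4.03 and 3.75 FPKM in control, at 6.12, 8.23 and 8.32 FPKM in EAM wild type and at 7.96, 8.26 and 8.15 FPKM in EAM knockout, where the EAM groups overlapped. Lists were compared with each other by no test. They were chosen with earlier results of these data known, so their counts beside all tested genes are a description.

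**Figure D4:**
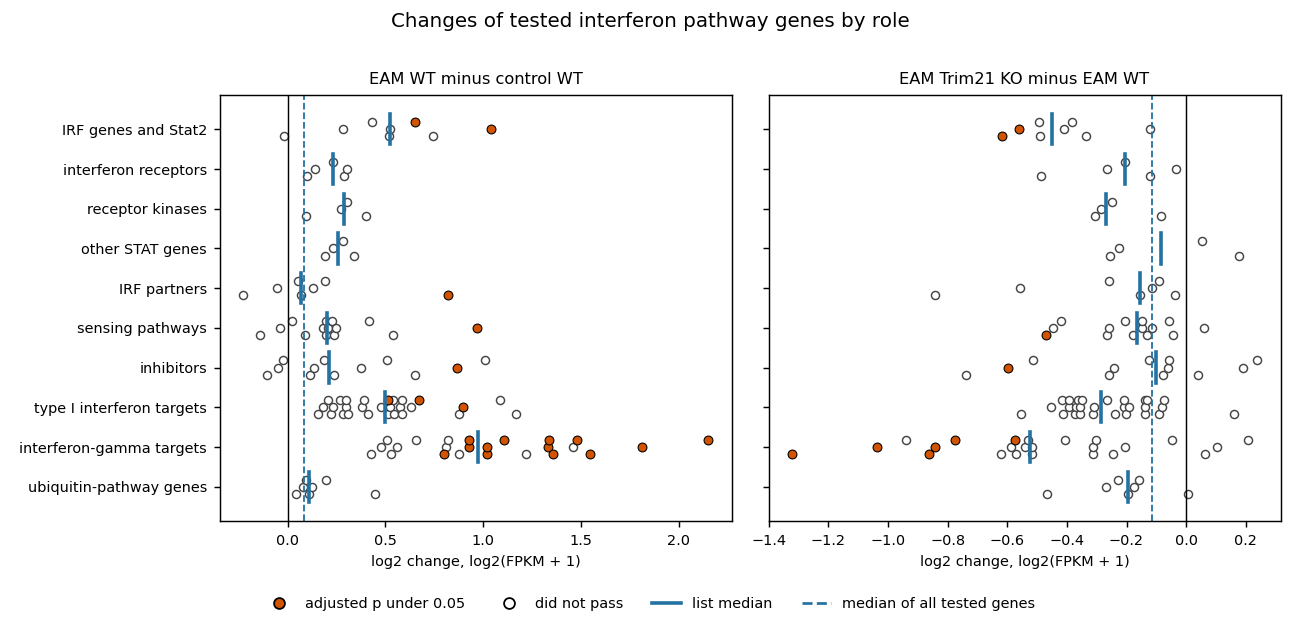
Points show the log2 difference, on the log2(FPKM + 1) scale, of each tested gene in the members and pathway lists, in EAM wild type against control and in knockout against EAM wild type. Filled points have an adjusted p under 0.05, thick marks are list medians and the dashed line is the median of all tested genes; the interferon-gamma targets have the highest median in EAM wild type against control (0.97) and the lowest in knockout against EAM wild type (-0.52).

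Across the processing alternatives, Irf1 and Irf8 kept their direction in all 21 settings in both comparisons that involve EAM wild type. The rise of Irf1 kept its call in 20 of 21 and that of Irf8 in 6 of 21, and the falls kept theirs in 11 and 8 of 21. Scaling libraries by median ratios, which brings the median gene of knockout against EAM wild type from -0.116 to -0.0015, left limma with 0 members past the threshold in that comparison, with an adjusted p of 0.12 for Irf1.

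**Figure D5:**
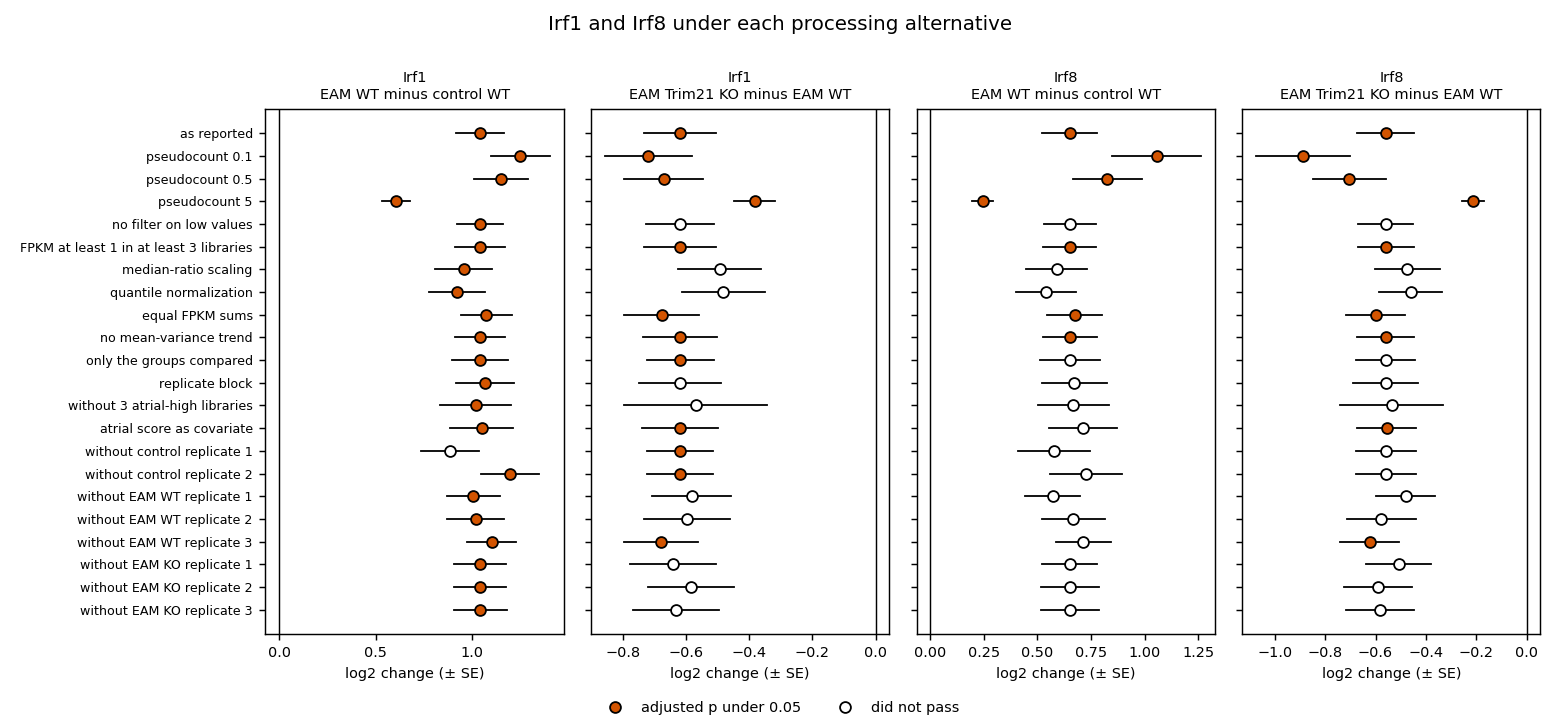
Log2 differences of Irf1 and Irf8 on the log2 scale under each processing alternative, with bars for the standard error and filled points for an adjusted p under 0.05. The rise of Irf1 passed in 20 of 21 alternatives and that of Irf8 in 6 of 21, and no difference changed sign.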

How the data were processed

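RNA of mouse samples labelled heart was converted into messenger RNA libraries, per the labels' protocols. The deposited table holds FPKM values made by the authors for 34745 genes in 8 libraries. HISAT2 2.0.4, StringTie 1.3.3b and edgeR are named with no roles, and mm10 as the build, per the submitters' processing notes. No source used here states strand use. Depth was inferred from the steps of low FPKM values, using exon lengths of GENCODE M21 (98.6% of gene identifiers found). Coordinates of genes are those of the deposited table.

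Groups came from the labels. Genes that reached 1 FPKM in 2 or more libraries were tested (10393 genes; 24352 were removed). The test was limma 3.58.1 (R 4.3.3), applied to log2(FPKM + 1) with a mean-variance trend, all 8 libraries of 3 groups in 1 fit with 5 residual degrees of freedom, and Benjamini-Hochberg adjustment over all tested genes at 0.05. Fold changes on this scale understate changes of low genes. The fit was tested on simulated data. No column of values was left unused. Members and gene lists were chosen with earlier results of these data known. Named genes are the 8 members, Trim21, at most 4 called genes with the largest change per pathway list and comparison, and the 2 most alike genes per member. Alternatives covered pseudocounts (0.1, 0.5 and 5), filters, scalings, the libraries fitted, a replicate block, an atrial covariate and each library left out. Promoters are from RefSeq (GRCm38.p6). Cell type markers were named where called or where they differed from the sum of their list, chosen after their values were seen.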

Additional observations from a re-analysis of the deposited data

How the results depend on the processing

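The limits are the 2 control libraries, the low levels of Irf5 and Irf8 and an FPKM table without counts. In EAM wild type against control, 2 members passed, against 1 with no filter, median-ratio or quantile scaling, a fit of only the groups compared, the replicate block, the 3 atrial-high libraries left out or an atrial covariate, and 0 to 1 with 1 library left out. In knockout against EAM wild type, 2 passed, against 1 in a fit of only the groups compared, 0 with no filter, median-ratio or quantile scaling, the replicate block or without the 3 atrial-high libraries, and 0 to 2 with 1 library left out. Knockout against control had 0 members in every setting. 

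Of 504 values for single members, 450 kept direction and side of the threshold, 39 lost a call, 0 gained one and 15 changed sign, all of them without a call; the cause was not tested. Irf3 in EAM wild type against control became 0.013 with equal sums, 0.0050 without the atrial-high libraries, and -0.054 to 0.016 with 1 library left out. Irf2 in knockout against EAM wild type became 0.0099 with median-ratio and 0.016 with quantile scaling. In knockout against control, Irf9 became -0.0068 with equal sums, -0.056 with the replicate block and -0.070 to 0.089 with 1 library left out, and Irf5 became -0.34 without the atrial-high libraries, -0.25 with the atrial covariate and -0.20 to 0.26 with 1 library left out.

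The pseudocount moved the log2 difference of Irf8 from 1.06 (0.1) to 0.24 (5) for EAM wild type against control and from -0.89 to -0.21 for knockout against EAM wild type. Over all genes, EAM wild type against control had 155 calls, against 91 with no filter, 93 with median-ratio and 82 with quantile scaling, 99 with only the groups compared, 51 with the atrial covariate, 15 without control 1, 56 without control 2, and 86 and 83 without EAM wild type 1 and 2. Knockout against EAM wild type had 321, against 180 with no filter, 131 with median-ratio and 140 with quantile scaling, 72 without the atrial-high libraries, 101 and 208 without EAM wild type 1 and 3, and 102 and 164 without EAM knockout 2 and 3. Knockout against control had 142, against 73 with no filter, 61 without the atrial-high libraries, 51 with the atrial covariate, 38 and 35 without control 1 and 2, and 65 without EAM knockout 2. Deviations of same-numbered libraries correlated at -0.197 to 0.355, and those of the EAM pairs at -0.09, 0.355 and 0.311. Since not every pair correlated positively and the earlier numbers differ between the EAM groups, the numbers were not taken to pair the libraries. The replicate block gave 119, 253 and 122 calls over all genes in the 3 comparisons, against 155, 321 and 142.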

Other observations

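A few targets stood out in single libraries and were picked after their values were seen. Oas1a, a sensor of double-stranded RNA, was at 1.81 FPKM in EAM knockout 3 and at 0 in the other 7 libraries. EAM knockout 3 also had the highest knockout level of Irf7 (3.77 FPKM), Iigp1 (12.3 FPKM against 4.86 and 6.96) and Tgtp2 (7.22 FPKM against 3.93 and 3.38). Trim25, a ubiquitin ligase of the RIG-I pathway, was lowest in replicate 3 of each EAM group, at 2.59 FPKM against 7.96 and 7.13 in EAM wild type and at 2.05 FPKM against 5.36 and 6.11 in EAM knockout, and Irf5 was also lowest within its group in those libraries.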
